A study of Solanum tuberosum with 11 samples.

Results

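StCDF1, StBEL5 and StSP6A are regulators of tuber formation in potato (Solanum tuberosum), and their transcript levels are described here in dormant tubers given a nitroguanidine compound. They were chosen by identifier as 3 of the 35091 genes in the authors' deposited table: PGSC0003DMG400018408 for StCDF1, PGSC0003DMG400005930 for StBEL5 and PGSC0003DMG400023365 for StSP6A. The table lists each under 1 transcript. It pairs no identifier with a gene name, so the names are those by which these identifiers are known and could not be checked against the data.

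StCDF1 is a DOF-type transcription factor that links the circadian clock to daylength. In leaves it represses CONSTANS genes, which relieves StSP6A of a repressor of the same protein family. StSP6A, a relative of the floral signal FLOWERING LOCUS T, is made in leaves and moves through the phloem to the stolon, where it promotes tuberization. StBEL5 is a BEL1-like homeodomain protein that works with KNOTTED1-like partners, and its mRNA is itself carried from leaf to stolon. Alleles of StCDF1 that differ at the end of the protein are known among potato cultivars, and the single value per condition does not separate alleles.

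RNA was sequenced from thin periderm discs with the apical bud, cut from greenhouse minitubers of cultivar Atlantic. Dimethyl sulfoxide (DMSO, 5 µl) was injected into intact dormant tubers, alone or with 10 µg of NG, which the labels call 1-(alpha-ethylbenzy)-3-nitroquanidine. By the labels, DMSO tubers sampled at zero time gave 3 libraries, and NG tubers gave 3 at day 1, 2 at day 4 and 3 at day 7. The DMSO tubers carry the agent label "untreated (no NG)". No DMSO library of a later day is among them, so NG and elapsed time cannot be told apart in any comparison. The sources used here do not say whether a library is 1 tuber or a pool.

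The authors had combined their libraries into 1 level per condition, named Controls and, for NG, NG 1-Day, NG 5-Days and then NG 7-Days. No label names a day 5, and that condition keeps the name the table gives it. Among the labelled NG days, only day 4 has no condition named after it. If NG 5-Days is that day, its level and error rest on 2 libraries, against 3 in each other condition. There are no replicate values, so no mean ± SD can be given. The errors below are standard errors on the log2 scale solved from the authors' test statistics, the intervals are 95% intervals from them, and they are model errors that may reflect only technical spread. The table names no unit for its levels, and sequencing depth is unknown. The tissue could not be checked against marker genes for want of names.

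Of the 3 genes, StBEL5 was abundant, StCDF1 was near the middle of the transcripts detected, and StSP6A was listed at or near 0. The authors' deposited table tested StBEL5 and StCDF1 in all 6 comparisons between conditions and StSP6A in none. None of the 12 tests was called at an adjusted p under 0.05 in the authors' deposited table, and 1 of the 12 had an unadjusted p under 0.05. Over all 118862 tested lines of the 6 comparisons, the authors' deposited table called 5.94%, and 12.5% had an unadjusted p under 0.05. Counts of 0 and 1 in 12 are near those shares, though the 12 tests reuse the same genes and conditions and are not independent. The test with an unadjusted p under 0.05 was StBEL5 at NG 5-Days against NG 1-Day, which lay just short of the threshold. In that comparison 6683 of the 19705 tested transcripts had an unadjusted p under 0.05.

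StBEL5 lies on chromosome 6, 49229262 to 49233277, in the coordinates of the authors' deposited table. Its level was 52.9 in Controls, 57.8 at NG 1-Day, 39.7 at NG 5-Days and 39.9 at NG 7-Days, per the authors' deposited table. The first pair of conditions was thus high and the later pair low. The intervals were 33.5 to 83.4 in Controls, 46.3 to 72.2 at NG 1-Day, 35.3 to 44.5 at NG 5-Days and 28.2 to 56.5 at NG 7-Days. The interval of NG 5-Days lay below that of NG 1-Day without overlap, and the other pairs of intervals overlapped. StBEL5 stood above 91.7% of the transcripts listed above 0 in Controls, 92.3% at NG 1-Day, 89.1% at NG 5-Days and 89.0% at NG 7-Days. In a bulk disc, fewer cells that hold a transcript and less of it per cell cannot be told apart.

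**Figure D1:**
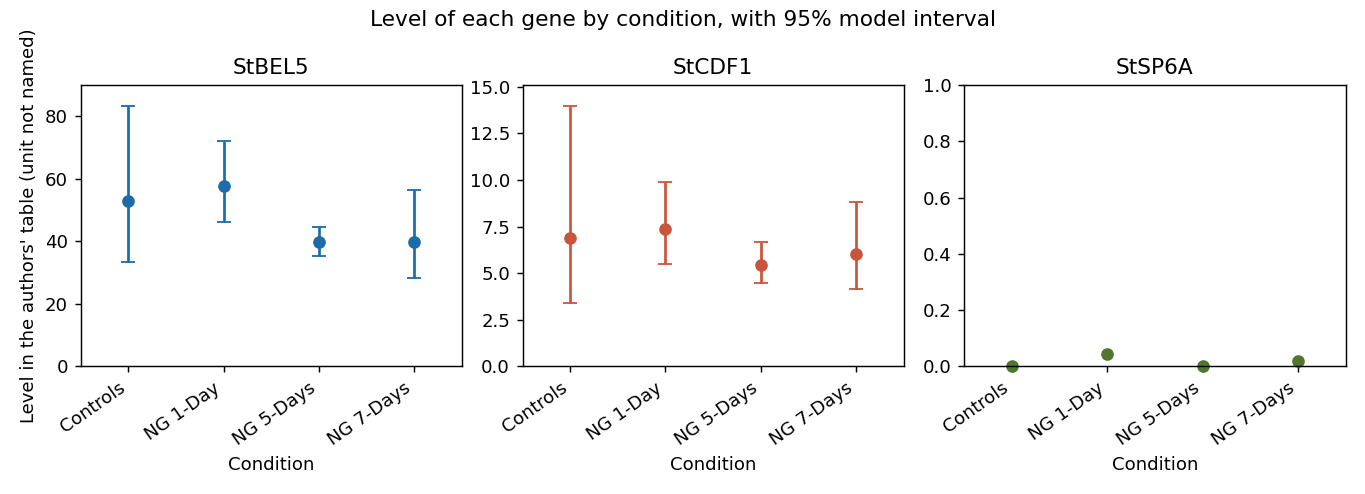
Level in the authors' deposited table (vertical axis, unit not named, each panel with its own scale from 0) of StBEL5, StCDF1 and StSP6A in the 4 conditions (horizontal axis). Points are the levels and bars the 95% model intervals, which could not be solved for StSP6A; StBEL5 was at 39.7 at NG 5-Days and 57.8 at NG 1-Day, and StSP6A did not exceed 0.0451.

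StCDF1 lies on chromosome 5, 4316749 to 4319606, in the same coordinates. Its level was 6.88 in Controls, 7.38 at NG 1-Day, 5.45 at NG 5-Days and 6.04 at NG 7-Days, per the authors' deposited table. The order of the conditions was that of StBEL5, with NG 1-Day highest and NG 5-Days lowest. The intervals were 3.39 to 14.0 in Controls, 5.50 to 9.90 at NG 1-Day, 4.46 to 6.65 at NG 5-Days and 4.14 to 8.83 at NG 7-Days, and each overlapped every other. StCDF1 stood above 58.0% of the transcripts listed above 0 in Controls, 59.9% at NG 1-Day, 51.4% at NG 5-Days and 54.4% at NG 7-Days.

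StSP6A lies on chromosome 5 as well, 46293984 to 46295631. The authors' deposited table lists it at 0 in Controls, 0.0451 at NG 1-Day, 0 at NG 5-Days and 0.0198 at NG 7-Days. The level at NG 1-Day was above only 6.85% of the transcripts listed above 0, and that at NG 7-Days above 3.23%. Among transcripts whose locus was 0.8 to 1.2 times as long, 11.4% of the 2933 above 0 at NG 1-Day were lower, and 5.64% of the 3050 above 0 at NG 7-Days. In Controls 1288 transcripts of such length, StSP6A included, were listed at 0. All 6 comparisons of StSP6A are marked as not tested in the authors' deposited table, as are those of 13961 transcripts, or 39.8% of the table. No fold change of StSP6A is used here. The authors' log2 value of -1.19 for NG 7-Days against NG 1-Day is untested and lies between levels near 0. At an unknown depth a level of 0 does not show that the transcript was absent.

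NG 5-Days against NG 1-Day was the comparison in which StBEL5 came nearest to a call. StBEL5 was at 39.7 at NG 5-Days and 57.8 at NG 1-Day in the authors' deposited table, a log2 fold change of -0.54 (standard error 0.18) or 0.686-fold (0.534 to 0.882). The authors' deposited table gives it an unadjusted p of 0.00329 and an adjusted p of 0.0541, so the difference did not pass 0.05. The level was 31.4% lower, and at its error a call needed a level 31.6% lower. The highest unadjusted p called in the authors' deposited table was 0.00297. Of the 19705 transcripts tested, 20% were called in this comparison in the authors' deposited table, 6.91% as lower, and 4015, or 20.4%, had a p no higher than that of StBEL5. A change at least as large in size was seen in 39.8% of tested transcripts above 0 in both conditions.

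The side of the threshold on which StBEL5 lay depended on the adjustment and the scaling. The authors' deposited q-values are adjusted over all 6 comparisons together. With this comparison adjusted alone, StBEL5 had an adjusted p of 0.0161 and was called lower at NG 5-Days than at NG 1-Day. Of all tested transcripts 25.7% were then called, and 9.43% were called lower. With fold changes centred on their median, the adjusted p of StBEL5 was 0.0421, where 18.4% of the 18197 transcripts with solved errors were called and 6.79% were called lower. With the median level of each condition made equal, an alternative chosen after seeing the data, StBEL5 had an adjusted p of 0.00514. Its log2 fold change was then -0.70, and 19.2% of the 18197 transcripts were called, 9.45% as lower. A call for StBEL5 under these settings is thus one that a sizeable share of all transcripts also had. Over all 7 alternatives the adjusted p lay between 0.00514 and 0.0735. StBEL5 was lower at NG 5-Days in each, but none of the alternatives could have changed that direction. Centring and equal medians subtracted 0.02 and 0.15 from the log2 fold change, which only moved it further below 0.

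StCDF1 was at 5.45 at NG 5-Days and 7.38 at NG 1-Day in the authors' deposited table. The log2 fold change was -0.44 (standard error 0.26), or 0.738-fold (0.518 to 1.05), with an unadjusted p of 0.0940 and an adjusted p of 0.590 in the authors' deposited table. At its error a call needed a 1.71-fold change, against 1.46-fold for StBEL5. The change in StBEL5 minus that in StCDF1 was -0.11 on the log2 scale, with an interval of -0.73 to 0.52 if the errors of the genes are independent. The larger change in StBEL5 was therefore within the error, and the interval also leaves room for sizeable differences either way.

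**Figure D2:**
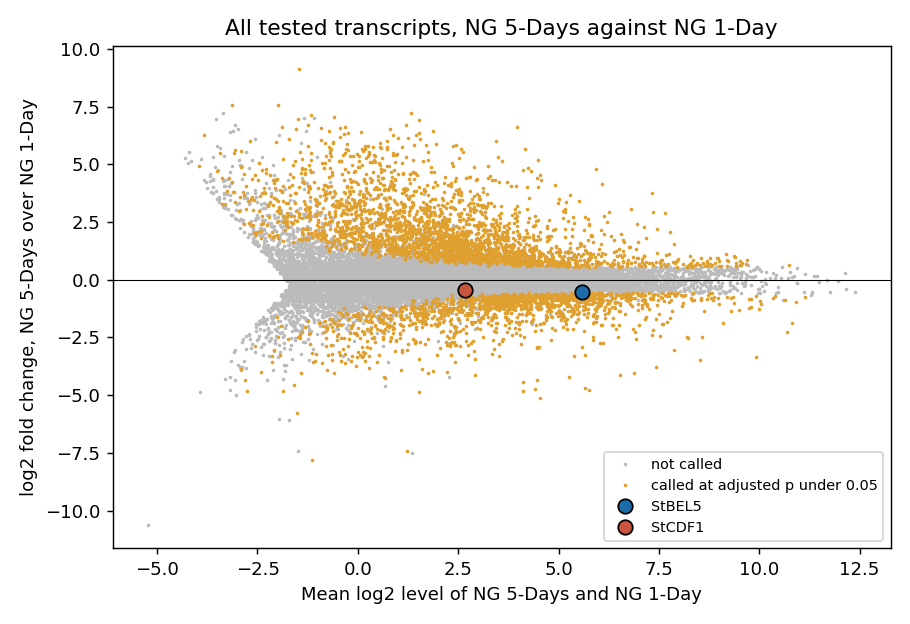
Every tested transcript above 0 in both conditions, by its mean log2 level at NG 5-Days and NG 1-Day (horizontal axis) and its log2 fold change of NG 5-Days over NG 1-Day (vertical axis), with transcripts called at an adjusted p under 0.05 in orange. StBEL5 (blue) and StCDF1 (red) lie at -0.54 and -0.44, at the edge of and within the band of uncalled transcripts.

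At NG 7-Days the StBEL5 level was close to that at NG 5-Days. StBEL5 was at 39.9 at NG 7-Days and 57.8 at NG 1-Day in the authors' deposited table, with a log2 fold change of -0.53 (standard error 0.30) and an adjusted p of 0.532. The wider error of NG 7-Days meant that a difference of nearly the same size had an interval reaching 1.04-fold. For StCDF1 the log2 fold change of NG 7-Days against NG 1-Day was -0.29 (standard error 0.35), with an adjusted p of 1.00 in the authors' deposited table. Of all tested transcripts 8.87% were called in this comparison in the authors' deposited table. NG 7-Days against NG 5-Days gave log2 fold changes of 0.01 (interval -0.52 to 0.54) for StBEL5 and 0.15 (-0.47 to 0.77) for StCDF1, in a comparison that called 4.36% of transcripts in the authors' deposited table. Those intervals allow changes of up to 1.45-fold upward for StBEL5 and 1.70-fold for StCDF1.

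Against Controls, both genes were slightly higher at NG 1-Day and lower in the later conditions, and the 95% interval of each difference included 0. At NG 1-Day the log2 fold change was 0.13 (standard error 0.37) for StBEL5 and 0.10 (0.57) for StCDF1. At NG 5-Days it was -0.42 (0.35) for StBEL5 and -0.34 (0.54) for StCDF1. At NG 7-Days it was -0.41 (0.42) for StBEL5 and -0.19 (0.59) for StCDF1. The lowest adjusted p among these 6 tests was 0.928, for StBEL5 at NG 5-Days, in the authors' deposited table. Over all transcripts tested, the authors' deposited table called 1.06% at NG 1-Day, 1.47% at NG 5-Days and 0.015% at NG 7-Days. These comparisons share the same Controls value.

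The error of Controls set what could be seen against it. The standard error of the log2 level of StBEL5 was 0.34 in Controls, 0.16 at NG 1-Day, 0.09 at NG 5-Days and 0.26 at NG 7-Days. For StCDF1 it was 0.52 in Controls, 0.22 at NG 1-Day, 0.15 at NG 5-Days and 0.28 at NG 7-Days. The smallest errors were thus those of NG 5-Days, which rests on 2 libraries if it is day 4. Wide errors against Controls were not particular to these genes. The median standard error of a fold change over tested transcripts was 0.60 to 0.64 against Controls and 0.29 to 0.38 between NG conditions. A call against Controls needed at least a 2.04-fold change for StBEL5 and a 3.06-fold change for StCDF1, both at NG 5-Days. Changes of the size seen between the NG conditions could not have been called against Controls.

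**Figure D3:**
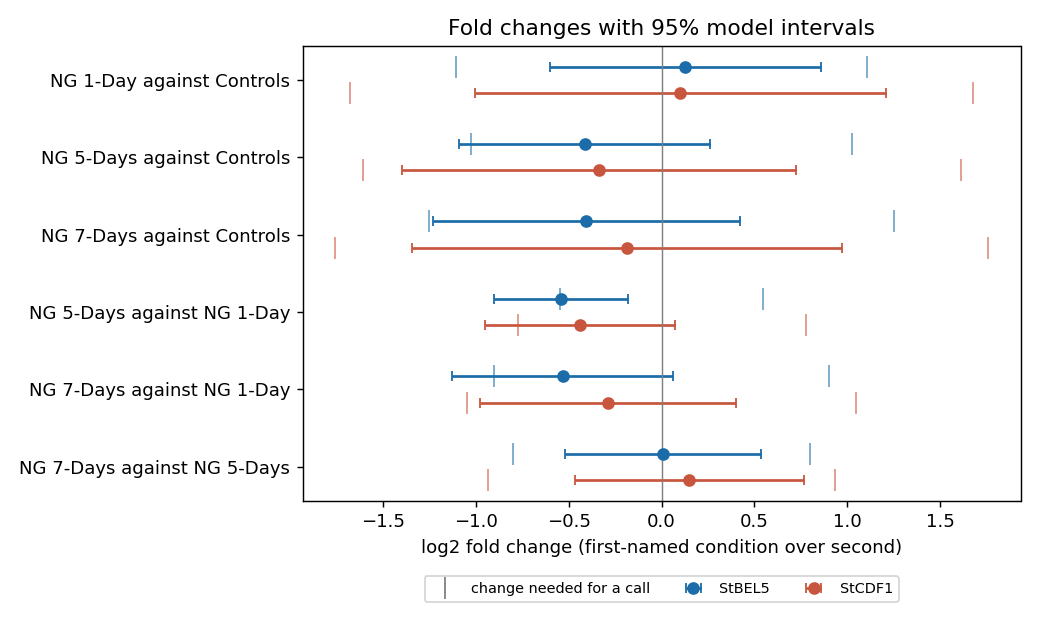
log2 fold change of the first-named over the second-named condition (horizontal axis) for StBEL5 (blue) and StCDF1 (red) in the 6 comparisons (vertical axis), with 95% model intervals as bars and the change needed for a call as short upright marks. StBEL5 at NG 5-Days against NG 1-Day, at -0.54, is the point nearest to its mark, and its interval is the only one of the 12 that does not cross 0.

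StBEL5 and StCDF1 shared the full order of their levels, with NG 1-Day first, then Controls, NG 7-Days and NG 5-Days. This order was common in the table. Of the 18480 transcripts above 0 in every condition with a highest level of at least 1, 2739, or 14.8%, had it, and only 1 of the 24 possible orders held more. No neighbouring pair in the order differed beyond its error for either gene. If the levels are scaled to transcript length, as is usual for this layout, StBEL5 stood 7.69 times as high as StCDF1 in Controls (interval 3.31 to 17.9), 7.83 times at NG 1-Day (5.41 to 11.3), 7.28 times at NG 5-Days (5.78 to 9.17) and 6.61 times at NG 7-Days (3.95 to 11.0). Each of the 4 ratios lay within the intervals of the other conditions.

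**Figure D4:**
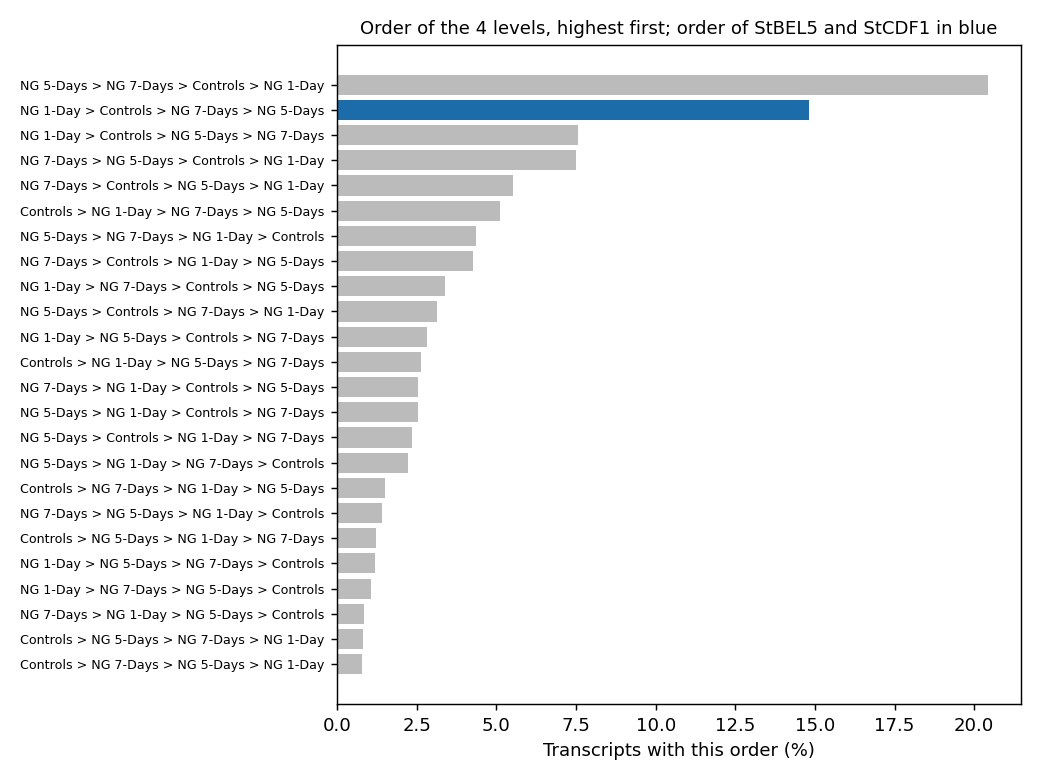
Share of the 18480 transcripts above 0 in every condition and reaching a level of 1 (horizontal axis, percent) that show each order of the 4 levels, highest first (vertical axis). The order of StBEL5 and StCDF1, in blue, was held by 14.8% and came after that with NG 5-Days highest and NG 1-Day lowest, held by 20.4%.

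The transcripts nearest in course over the 4 conditions are given for both genes. They were picked as the nearest of 18480 compared, so small differences follow from the choice. Likeness was the root mean square difference of log2 levels, each centred on its own mean, over 4 conditions. Nearest to StBEL5 were PGSC0003DMG400007007 on chromosome 5, with a difference of 0.0123, and PGSC0003DMG400023920 on chromosome 9, with 0.0131. PGSC0003DMG400007007 was at 18.3 in Controls, 20.0 at NG 1-Day, 13.9 at NG 5-Days and 13.6 at NG 7-Days in the authors' deposited table. Nearest to StCDF1 were PGSC0003DMG400047327 on chromosome 4, with a difference of 0.00857, and PGSC0003DMG400012454 on chromosome 7, with 0.00900. All of these differences are below the standard errors of the levels of both genes, so which transcript is nearest lies within the error. StBEL5 and StCDF1 differed from each other by 0.0952 on this measure. By it 798 transcripts were nearer to StBEL5 than StCDF1 was, and 1702 were nearer to StCDF1 than StBEL5 was.

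No listed transcript overlapped the locus of any of the 3 genes. The nearest transcripts on either side of StBEL5 were not at their lowest at NG 5-Days, as StBEL5 was. PGSC0003DMG400005894, which starts 22.4 kb beyond StBEL5 at higher coordinates (49255638 to 49262147), was at 9.09 in Controls, 10.2 at NG 1-Day, 21.4 at NG 5-Days and 12.6 at NG 7-Days in the authors' deposited table. It rose at NG 5-Days against NG 1-Day, where StBEL5 was lower, by 1.06 ± 0.20 (standard error) on the log2 scale, with an adjusted p of 3.82e-06 in the authors' deposited table. It also rose at NG 5-Days against Controls (log2 fold change 1.23, adjusted p = 0.0458) and fell at NG 7-Days against NG 5-Days (log2 fold change -0.77, adjusted p = 0.0398), in the authors' deposited table. Calls as higher at NG 5-Days against NG 1-Day numbered 2589 among the 19705 transcripts tested. On the other side, 3.39 kb away, PGSC0003DMG400005929 lay between 10.2 and 11.8 and was called in no comparison. Its log2 fold change at NG 5-Days against NG 1-Day was 0.07 (standard error 0.25), and its difference from that of StBEL5 was not tested.

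Both neighbours of StCDF1 were higher at NG 5-Days than at NG 1-Day. PGSC0003DMG400018427, 6.42 kb away at higher coordinates, was at 3.11 in Controls, 3.07 at NG 1-Day, 6.30 at NG 5-Days and 3.46 at NG 7-Days in the authors' deposited table. Its rise at NG 5-Days against NG 1-Day was called by the authors' deposited table, at a log2 fold change of 1.04 ± 0.29 (standard error) and an adjusted p of 0.00938. That call was 1 of the 2589 as higher in this comparison. PGSC0003DMG400018426, 29.5 kb away on the other side, was at 11.2 at NG 5-Days and 6.30 at NG 1-Day, and with an adjusted p of 0.0527 in the authors' deposited table it was not called. StCDF1 itself was lower at NG 5-Days without being called, and the difference between it and its neighbours was not tested.

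**Figure D5:**
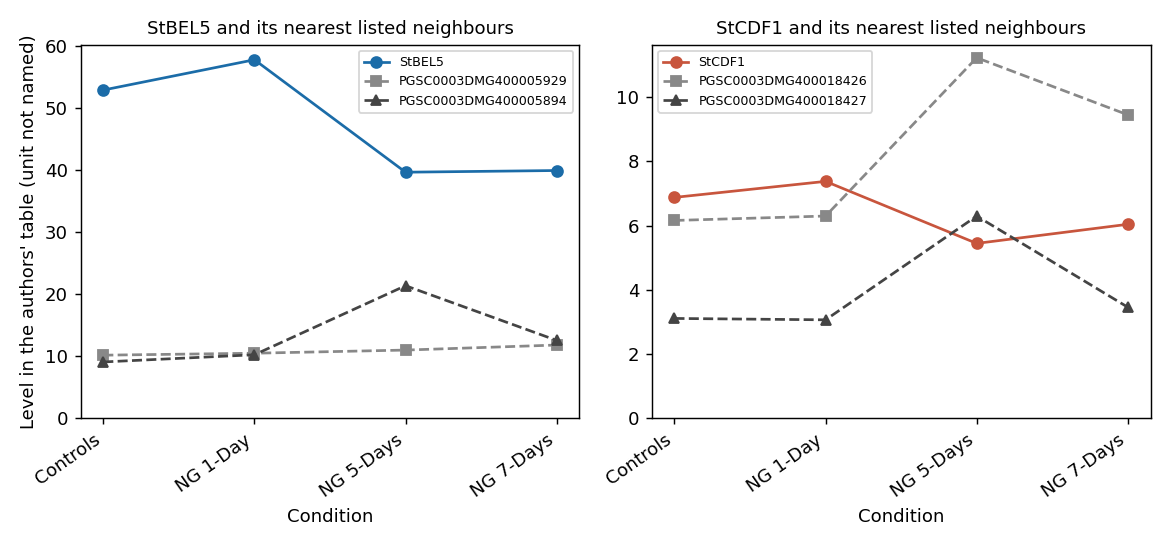
Level in the authors' deposited table (vertical axis from 0, unit not named) of StBEL5 and of StCDF1 (solid lines) and of the nearest listed transcript on either side of each (dashed lines) in the 4 conditions (horizontal axis). PGSC0003DMG400005894 beside StBEL5 reached 21.4 at NG 5-Days, and PGSC0003DMG400018427 beside StCDF1 reached 6.30, where StBEL5 and StCDF1 were at their lowest.

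The neighbours of StSP6A differed widely in level. PGSC0003DMG400023364, 4.50 kb away at higher coordinates (46300127 to 46301119), was at 14.7 in Controls, 1.32 at NG 1-Day, 58.5 at NG 5-Days and 30.01 at NG 7-Days in the authors' deposited table. It was tested only at NG 5-Days against Controls, with a log2 fold change of 1.99 (standard error 0.68) and an adjusted p of 0.0557 in the authors' deposited table, and so was not called. On the other side, 5.81 kb away, PGSC0003DMG400023366 lay between 0.0361 and 0.0875 and was tested in no comparison. The low level of StSP6A thus had 1 neighbour at a like level and 1 far above it.

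Other genes of the pathway were to be read from a list of 25 symbols, among them the StSP6A relative SP5G, CONSTANS genes, phytochromes and the StBEL5 partner POTH1. None of the 35091 identifiers matched the 32873 genes of the reference table used here, so no member of that list could be given a value.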

How the data were processed

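The authors deposited 1 table, laid out like Cuffdiff's differential expression output per the file headers. Each line holds 1 of 35091 transcripts in 1 of 6 comparisons, with both levels, the log2 fold change, a statistic, the authors' p-value and q-value, and a call. The sources used here name no aligner, build or filter. No unit is given for the deposited levels, which in such a layout are usually FPKM. Benjamini-Hochberg q-values recomputed over the 118862 tested lines together differed from the deposited ones by at most 3.32e-06.

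Values per library, which the planned count model needs, were not in the table, so calls are those of the authors' test (adjusted p under 0.05). Standard errors per condition were solved for 18197 transcripts tested in every comparison, taking the squared ratio of log2 fold change to statistic as a sum of 1 term per condition (median relative residual 1.62e-06). Alternatives were other adjustments, thresholds, pseudocounts and scalings. Python 3.11.15 with numpy 2.4.6, pandas 2.3.3 and scipy 1.17.1 was used, and the code was tested on simulated data. Ranks of levels left out 13 transcripts whose lines disagreed or which were marked as too abundant. The text names the 3 genes, the 2 transcripts most like each tested gene, and the nearest on either side of each locus. The genes and lists were chosen with earlier results of these data known.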

Additional observations from a re-analysis of the deposited data

How the results depend on the processing

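Of the 84 recomputed fold changes of StBEL5 and StCDF1 (12 tests under 7 alternatives), all kept their direction. The adjustments, thresholds and pseudocounts cannot change a sign. Median centring and equal medians can, but here they shifted each of these fold changes away from 0. The kept directions are therefore no test of the differences. Of the 84, 81 kept their side of the threshold. The other 3 were StBEL5 in NG 5-Days against NG 1-Day, which became a call at -0.54 with that comparison adjusted alone, at -0.57 with median centring and at -0.70 with the median levels of the conditions made equal. That comparison called 3950 transcripts as deposited (2589 higher, 1361 lower), and 5060 (3202 higher, 1858 lower), 3354 (2118 higher, 1236 lower) and 3499 (1779 higher, 1720 lower) in those settings. The last alternative was chosen after seeing the data; it shifted the log2 fold changes by 0.15 for NG 5-Days over NG 1-Day, 0.12 for NG 7-Days over NG 1-Day, 0.10 for NG 5-Days over Controls and under 0.1 otherwise. Pseudocounts of 1 and 5, and adjusting the untested lines too, made no call for either gene. A threshold of 0.01 could not have made one. The levels of the 3 genes were the same in every line that lists them. With a pseudocount of 1, the nearest transcripts kept 1 of 2 for StBEL5 and 0 of 2 for StCDF1.

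Counts of calls over all transcripts moved by more than 1.5 times as follows. For NG 1-Day against Controls, 206 became 82 adjusted alone, 106 at 0.01, 34 and 11 with pseudocounts of 1 and 5, 91 centred and 90 with equal medians. For NG 5-Days against Controls, 298 became 96, 118 at 0.01, 164 centred and 174 with equal medians. For NG 7-Days against Controls, 3 became 0 adjusted alone (73 had an unadjusted p under 0.05 in the deposited test), 22 with untested lines and 1 with a pseudocount of 5. At 0.01, NG 7-Days called 1115 against NG 1-Day and 449 against NG 5-Days, down by design from 1734 and 869. Pseudocounts and scalings used only transcripts with solved errors; the cause of the other moves was not tested. No paired analysis was possible because the table holds no values per library, which also kept any library from being left out. Depth is unknown, and StSP6A, untested and at or near 0, has no tested fold change to recompute.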
